A study of Homo sapiens with 24 samples.

Results

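Interferon-stimulated genes are the genes that cells switch on after an interferon binds its receptor. A list of 51 of them was followed here through 24 Affymetrix arrays of P3HR1, an established Burkitt lymphoma cell line that carries Epstein-Barr virus. A gene was included when at least 1 probe set carried its symbol and no other, which held for 50 of the 51 genes and for 96 probe sets, out of 19775 genes and 54613 probe sets in all. No probe set named IFI30 alone, and 1 probe set shared by IFITM1 and IFITM2 was not used. The cells carried the pRTS1 vector, from which doxycycline switches on either GFP alone (control cells) or GFP with the miR-28 precursor (miR-28 cells). Each genotype existed as 2 bulk populations, A and B, and each population was induced 3 times for 12 h and 3 times for 24 h, which gave 4 groups of 6 arrays. The labels state the doxycycline concentration as 0.1 ug/ml in one field and as 1 ug/ml in another, in the same way for every group. Every array came from induced cells, so a difference that the populations already had before induction cannot be told apart from one that followed it.

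Interferons of type I act through the receptor chains IFNAR1 and IFNAR2 and the kinases JAK1 and TYK2, which lead to a complex of STAT proteins with IRF9. That complex binds a short element in the promoters of its target genes, the interferon-stimulated response element. The products of those genes bind viral RNA (IFIT proteins), degrade it (OAS proteins with RNase L, ISG20), attach the ubiquitin-like protein ISG15 to other proteins (UBE2L6, HERC5), or hold back viruses at membranes (IFITM proteins, BST2). B cells carry the receptor and respond to it.

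The element was searched in RefSeq promoters of build GRCh38.p14, in the 250 bases before each transcript start. It was taken as GAAANNGAAA or its reverse complement, with overlaps counted. Of the 42 listed genes with a promoter entry, 25 (59.5%) held it in at least 1 promoter, against 1014 of all 27305 genes (3.71%). A match is a description of the letters and no evidence of binding here. ISG20 differed between the genotypes, and the levels of IFIT1, IFIT3, IFI27 and ISG15 did not overlap between the miR-28 populations at 12 h. Stretches of these genes are printed below, with only the copy of the element nearest the start in capitals. Those of IFIT1, IFI27 and ISG15 hold a further copy in lower case, which in ISG15 overlaps the marked one. The printed stretches lie at chr15:88638922-88638981 (ISG20, + strand), chr10:89392495-89392554 (IFIT1, + strand), chr10:89332453-89332512 (IFIT3, + strand), chr14:94110616-94110675 (IFI27, + strand) and chr1:1013365-1013424 (ISG15, + strand).
ISG20: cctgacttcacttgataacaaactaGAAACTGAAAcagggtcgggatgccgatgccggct
IFIT1: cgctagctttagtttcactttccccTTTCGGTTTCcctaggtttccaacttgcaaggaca
IFIT3: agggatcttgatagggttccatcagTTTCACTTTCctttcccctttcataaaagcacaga
IFI27: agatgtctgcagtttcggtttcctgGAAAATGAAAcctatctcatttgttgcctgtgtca
ISG15: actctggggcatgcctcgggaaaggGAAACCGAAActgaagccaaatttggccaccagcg

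The element therefore occurred in genes of both behaviours. These letters were not found in the windows of UBE2L6, SP110 and IFI35, which were also higher in miR-28 cells, and TRIM22 and IFIT2 had no promoter entry. The induced precursor gives rise to miR-28-3p, shown here with its seed (bases 2 to 8) in capitals, encoded at chr3:188688834-188688855 on the + strand.
hsa-miR-28-3p: cACUAGAUugugagcuccugga

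Levels are linear probe-set intensities, and differences are on the scale log2(intensity + 8), which understates changes of dim genes. Each gene was followed by its brightest probe set. Of the 50 genes, 37 lay above the filter on low intensity and were tested among 11380 genes. A gene was called when its limma p, adjusted over all 11380 genes, was under 0.05. Column medians ranged from 73.23 to 93.16 and arrays of 1 group correlated at 0.9542 to 0.9692 across genes. The labelled cell type was borne out by the B-cell marker MS4A1, at 15120 to 22080 on all arrays. All 7 B-cell markers were tested, and limma called 3 of them higher in miR-28 cells at 24 h, BANK1 at 0.364 ± 0.066, BLNK at 0.264 ± 0.073 and CD79B at 0.242 ± 0.071 (adjusted p 0.00174, 0.0351 and 0.0463). With time CD79B and BANK1 fell in control cells, by 0.553 ± 0.073 and 0.422 ± 0.069. In miR-28 cells CD79B fell by 0.312 ± 0.073, and limma called 1 other B-cell marker higher with time. Of all genes, limma called 2.6% higher in miR-28 cells at 24 h. Between 12 h and 24 h it called 2.54% lower in control cells, and 2% lower and 2.65% higher in miR-28 cells. The part of these markers in the results on these genes was not tested. Of 33 markers of other cell types with a probe set, 11 were tested and 0 were called at either time by limma, with 3 at an unadjusted p under 0.05 at 24 h. Their summed intensity was 11280 to 12750 on control and 10530 to 14030 on miR-28 arrays at 24 h. Of the 5 listed markers of plasmacytoid dendritic cells, which make interferon, 1 lay above the filter and was not called at either time. LILRA4 and CLEC4C were among those below the filter, at 8.639 to 76.95 and 3.036 to 84.03.

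Within the 24 h miR-28 group, the arrays labelled A3 and B3 went against their population letters in these genes, which touches every result that uses the letters. At 12 h, 15 of the 37 tested genes were higher on all 3 population A arrays than on all 3 population B arrays of miR-28 cells. At 24 h array A2 was among the 3 highest of the 6 arrays in all 15 of these genes, A1 in 13 and A3 in 0. Array B3 was among them in 15 genes, B2 in 2 and B1 in 0. IFIT1 read 860, 719.4 and 197.7 on A1, A2 and A3, and 233.8, 163.4 and 858.5 on B1, B2 and B3. IFI27 read 3096, 3211 and 494.8 on the A arrays, and 710.2, 606.4 and 3258 on the B arrays. A3 thus resembled B1 and B2, and B3 resembled A1 and A2. The same turn appeared in 100 genes outside the list, those with the largest statistic between the populations at 12 h. Across these genes, which are not independent replicates, an array's deviation correlated with the 12 h difference at -0.21, -0.37 and 0.18 on A1, A2 and A3, and at 0.34, 0.38 and -0.4 on B1, B2 and B3. In control cells at 24 h all 6 arrays followed their letters, at -0.09, -0.17, -0.3, 0.19, 0.22 and 0.15. What set A3 and B3 apart was not tested. Both arrays belong to the same group, so the comparison of genotypes keeps them whatever their population, and its calls are also given without them.

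At 24 h, 6 of the 37 genes were higher in miR-28 cells and 0 were lower, where 296 of all 11380 genes (2.6%) were higher. The 6 were ISG20, TRIM22, UBE2L6, SP110, IFI35 and IFIT2. The median difference was 0.341 over the 37 genes and 0.02 over all genes, and 36 of the 37 lay above 0 (35 after quantile normalization), against 53.9% of all genes. At an unadjusted p under 0.05, 11 of the 37 were higher and 0 lower, where 10.1% of all genes were higher. These genes move together from array to array, so their number adds less than that many separate observations. In bulk RNA, fewer cells with a transcript and less transcript per cell cannot be told apart.

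ISG20, an exonuclease that degrades single-stranded RNA, separated the genotypes at 24 h. It read 2815 to 3869 (median 3339) on the 6 control arrays and 4224 to 5530 (median 4662) on the 6 miR-28 arrays at 24 h. No control array reached the lowest miR-28 array. The difference was 0.518 ± 0.098 (log2 ± SE, 6 against 6 arrays, limma adjusted p 0.0025). At 12 h the groups overlapped, at 3659 to 4652 (median 4398) and 3974 to 5456 (median 4985), with a difference of 0.215 ± 0.098 (adjusted p 0.483). With time ISG20 fell by 0.349 ± 0.102 in control cells (adjusted p 0.0436), a call kept in 18 of 37 alternatives and lost under median centring, and gave -0.046 ± 0.102 in miR-28 cells.

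TRIM22, a RING-domain antiviral protein strongly induced by interferon, read 2527 to 4186 (median 2980) on control and 3898 to 4658 (median 4251) on miR-28 arrays at 24 h. The groups overlapped only through control array B2 at 4186, since the other 5 control arrays reached at most 3013. The difference was 0.473 ± 0.086 (adjusted p 0.00172), and 0.563 ± 0.065 without that array. At 12 h the levels were 2379 to 3038 (median 2767) and 2856 to 3218 (median 3057), a difference of 0.143 ± 0.086 (adjusted p 0.649). Here the miR-28 cells rose with time, by 0.482 ± 0.089 (adjusted p 0.00322), against 0.152 ± 0.089 in control cells.

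UBE2L6, the conjugating enzyme that passes ISG15 to its targets, read 2937 to 3179 (median 3023) on control and 3398 to 4332 (median 3543) on miR-28 arrays at 24 h. The groups did not overlap. The difference was 0.282 ± 0.08 at 24 h (adjusted p 0.04) and 0.257 ± 0.08 at 12 h (adjusted p 0.225), when the levels were 1688 to 2260 (median 1963) and 1993 to 2690 (median 2461). UBE2L6 thus differed by a similar amount at both times while rising with time in both genotypes.

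SP110, a nuclear body protein, read 1532 to 1913 (median 1758) on control and 1831 to 2316 (median 2100) on miR-28 arrays at 24 h. The groups overlapped slightly, and the difference was 0.247 ± 0.069 (adjusted p 0.0378). At 12 h it read 1756 to 2162 (median 1954) and 2086 to 2310 (median 2175), a difference of 0.151 ± 0.069 (adjusted p 0.485).

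The remaining called genes were dimmer and more scattered. IFI35, an interferon-induced leucine zipper protein, read 67.09 to 290.8 (median 192.7) on control and 202.7 to 447.7 (median 329.3) on miR-28 arrays at 24 h, with a difference of 0.866 ± 0.253 (adjusted p 0.0463). IFIT2, which binds RNA, read 20.65 to 159.1 (median 43.29) and 102.2 to 259.8 (median 149.6), with a difference of 1.381 ± 0.407 (adjusted p 0.0493). The groups overlapped in both genes. At 12 h IFI35 read 139.6 to 275.8 (median 198.2) and 133.7 to 250.2 (median 185.5), and IFIT2 read 43.49 to 140.2 (median 116.9) and 34.81 to 175.5 (median 128.8), with differences of -0.08 ± 0.253 and -0.063 ± 0.407.

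**Figure D1:**
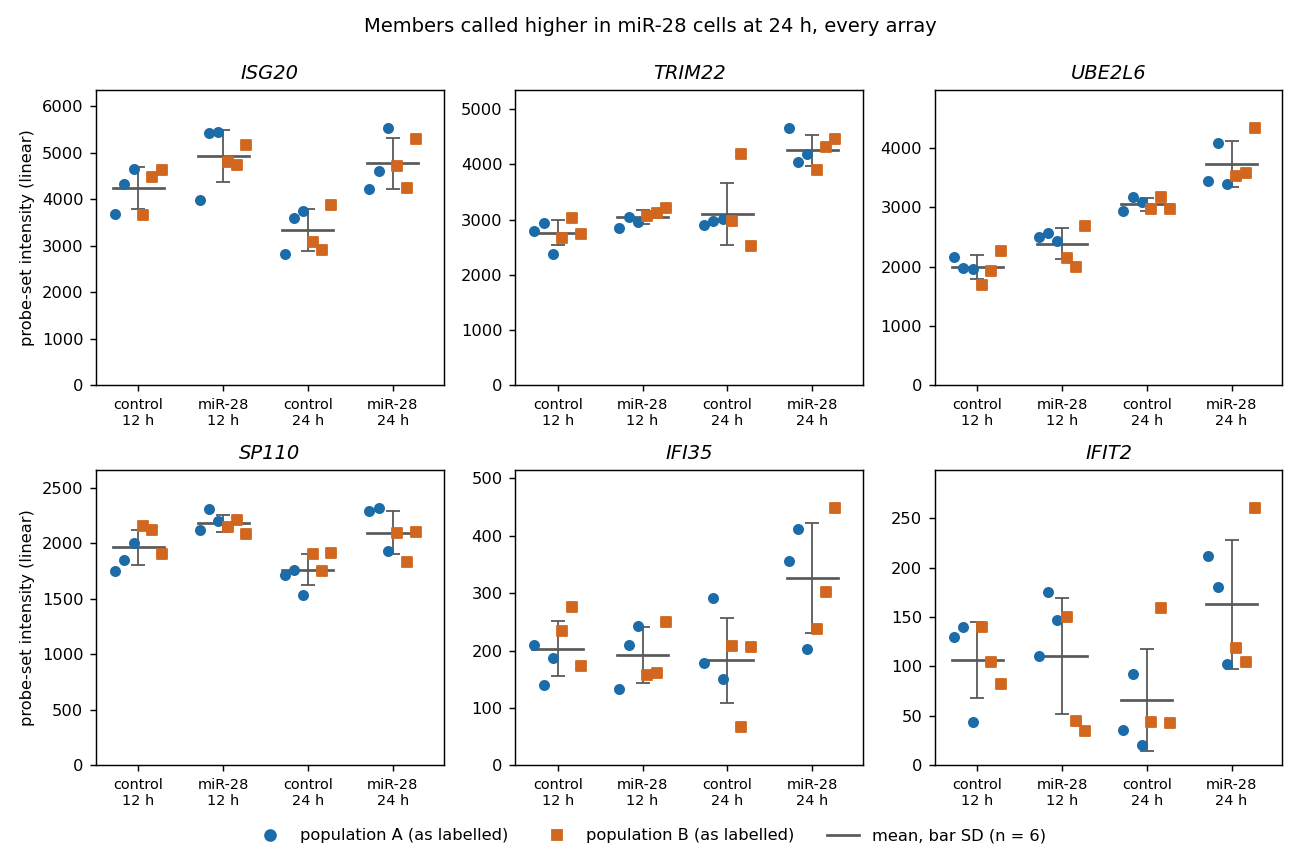
Probe-set intensity (linear) of the 6 genes called higher in miR-28 cells at 24 h, by group. Each point is 1 array, circles and squares are the labelled populations A and B, and lines with bars are the mean and SD of 6 arrays. At 24 h ISG20 and UBE2L6 separate the genotypes fully, and 1 control array of TRIM22 lies at 4186.

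These calls rest on unequal ground. ISG20 and TRIM22 kept theirs in 34 of 37 alternative analyses, and lost it in 3, population A alone, population B alone and population means. The first 2 use fewer arrays. The last uses every array but takes 1 mean per population and time, which makes the population the unit. UBE2L6 and SP110 kept theirs in 22 of 37, IFI35 in 15 of 37 and IFIT2 in 12 of 36. Leaving out a single array ended the call of UBE2L6 for 8 of the 24 arrays, of SP110 for 8, of IFI35 for 14 and of IFIT2 for 15. With the 24 h miR-28 arrays A3 and B3 left out, 2 of the 6 were called, ISG20 at 0.423 ± 0.108 (adjusted p 0.0328) and TRIM22 at 0.461 ± 0.102 (adjusted p 0.0142). Of all 11380 genes, 201 (1.77%) were called higher in that setting. UBE2L6, SP110, IFI35 and IFIT2 then gave 0.257, 0.272, 0.895 and 1.334. Of the 12 arrays at 24 h, leaving out any 1 of control A1 or A3, or miR-28 A2 or B3, kept 2 of the 6 calls, ISG20 and TRIM22. Leaving out control B1 or B3, or miR-28 A1, B1 or B2, kept 3, and without miR-28 B1 EPSTI1 was called as well. Leaving out control B2 kept 4.

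All 6 miR-28 arrays lay above all 6 control arrays at 24 h in 3 of the 37 genes, ISG20, UBE2L6 and RNF213, where 1.6% of all genes did. With the letters as labelled, both miR-28 population means lay above both control population means in 26 of the 37, against 26.2% of all genes. Without the 24 h miR-28 arrays A3 and B3 this held in 18 of the 37, against 24.6% of all genes. RNF213, a large ubiquitin ligase that coats intracellular bacteria, read 108.1 to 258.7 (median 175.9) on control and 267.3 to 397.6 (median 298.8) on miR-28 arrays, a difference of 0.842 ± 0.307 (adjusted p 0.117). At 12 h 0 of the 37 genes had groups that did not overlap, against 0.852% of all genes.

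At 12 h, 0 of the 37 genes were called by limma, where 61 of all 11380 genes (0.536%) were. At an unadjusted p under 0.05, 4 were higher and 0 lower, where 5.2% of all genes were higher and 4.46% lower. The median difference was 0.082, against 0.013 over all genes, and 26 of the 37 lay above 0, against 53.5% of all genes. The change of the genotype difference from 12 h to 24 h was called by limma in 0 of the 37 genes and in 0 of all genes (0%), with 4 of the 37 and 787 of all genes at an unadjusted p under 0.05. It had a median of 0.212 over the 37 genes. The 24 h calls are therefore not shown to be particular to 24 h.

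**Figure D2:**
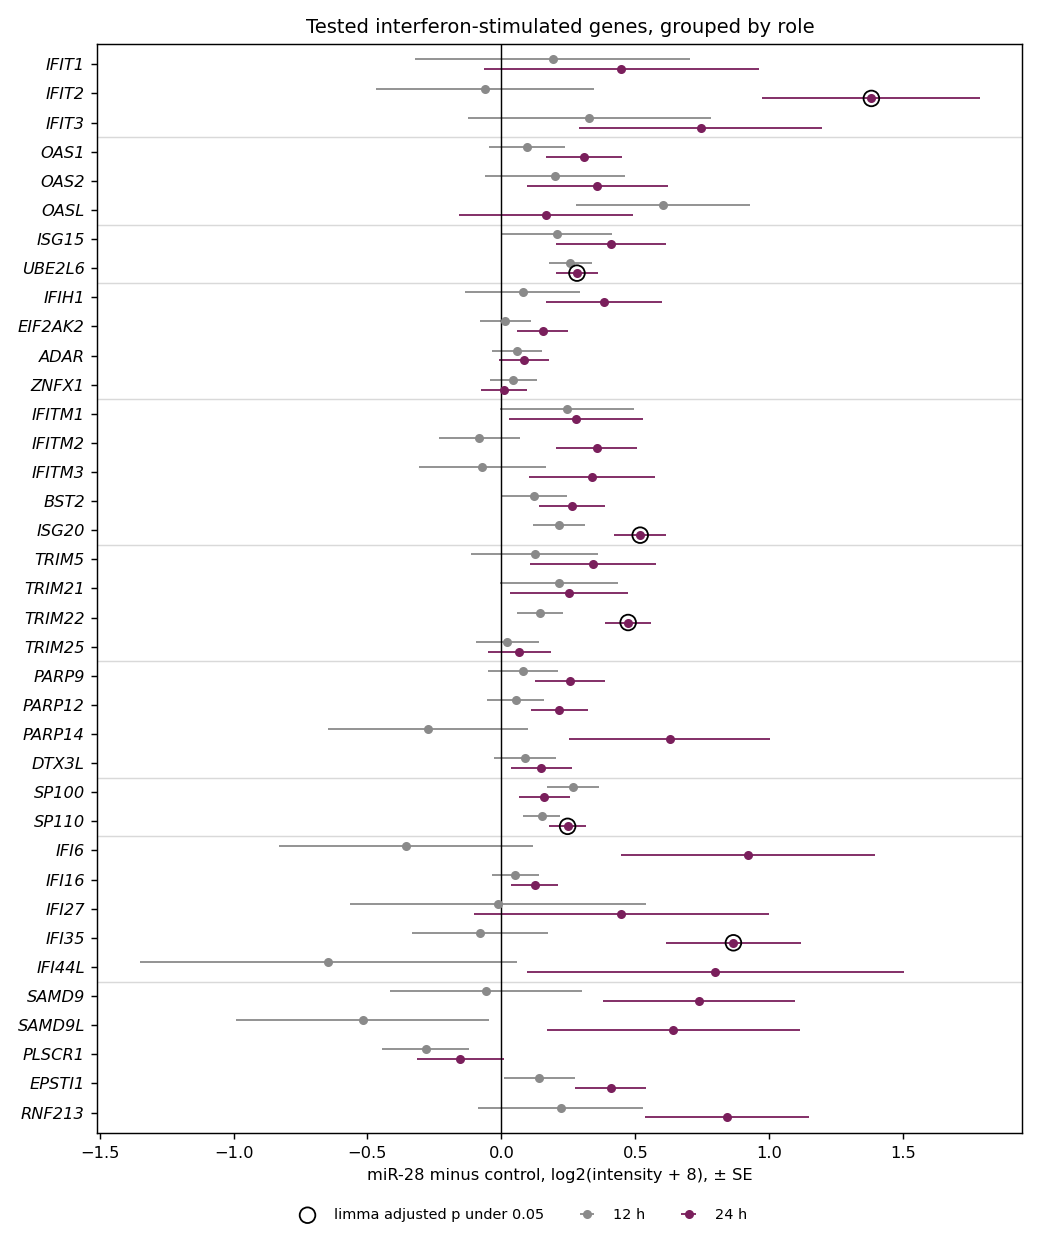
Difference between miR-28 and control cells, on the scale log2(intensity + 8) with its SE, for the 37 tested genes at 12 h (grey) and 24 h (purple), with lines between roles. Open circles mark the 6 calls, all at 24 h. At 24 h all genes except PLSCR1 lie to the right of 0.

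By role, the IFIT proteins had 1 of 3 tested genes called at 24 h. IFIT1, which binds RNA whose cap lacks a methyl mark, read 175.4 to 449.8 (median 292.4) on control and 163.4 to 860 (median 476.6) on miR-28 arrays. The miR-28 arrays spanned the control range on both sides, and the difference was 0.448 ± 0.513 (adjusted p 0.708). At 12 h IFIT1 read 133.4 to 447 (median 257.9) and 105 to 660.9 (median 321.6), a difference of 0.191 ± 0.513. IFIT3, the partner that stabilises IFIT1, gave 0.744 ± 0.454 at 24 h.

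Among the OAS synthetases, which make the activator of RNase L, 0 of 3 tested genes were called by limma and 1 had an unadjusted p under 0.05. That gene was OAS1, at 955.5 to 1484 (median 1117) on control and 1106 to 1660 (median 1477) on miR-28 arrays at 24 h, a difference of 0.308 ± 0.142 (adjusted p 0.239). At 12 h it read 950.9 to 1376 (median 1191) and 949.8 to 1677 (median 1234). OAS2 gave 0.358 ± 0.262 at 24 h.

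ISG15 itself, the ubiquitin-like modifier, was bright in every group. It read 6645 to 10740 (median 8140) on control and 6818 to 16410 (median 11350) on miR-28 arrays at 24 h, a difference of 0.409 ± 0.207 (adjusted p 0.293). At 12 h it read 6006 to 9752 (median 7048) and 6067 to 11390 (median 8732), with 0.206 ± 0.207. The groups overlapped at both times, in contrast with the separation of UBE2L6 at 24 h. This contrast between the genes was not tested.

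Of the 4 tested RNA sensors and effectors, 0 were called by limma and 0 had an unadjusted p under 0.05. IFIH1, the sensor MDA5, gave 0.382 ± 0.216, and EIF2AK2, the kinase PKR, gave 0.155 ± 0.095. The RNA-editing enzyme ADAR, at 6404 to 9413 over all arrays, gave 0.084 ± 0.093. The membrane proteins IFITM1, IFITM2, IFITM3 and BST2 gave 0.279 to 0.355 for the first 3 and 0.263 for BST2, none of them called, and IFITM2 and IFITM3 are near-identical in sequence, so their probe sets may share signal.

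Of the 4 TRIM genes, TRIM22 was called, while TRIM5, which intercepts retroviral capsids, gave 0.341 ± 0.236 and TRIM25 0.067 ± 0.118. The PARP genes and their partner DTX3L had 0 of 4 called by limma and 0 at an unadjusted p under 0.05, with PARP9 at 0.257 ± 0.131 and PARP12 at 0.216 ± 0.106. IFI6, which restricts flaviviruses, gave 0.921 ± 0.474. EPSTI1 gave 0.408 ± 0.133 (adjusted p 0.0747), from 493 to 620.7 (median 576.3) on control to 568.7 to 940.9 (median 772.7) on miR-28 arrays. PLSCR1, a phospholipid scramblase, was the one tested gene below 0 at 24 h, at -0.153 ± 0.162.

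The 13 genes below the filter included several of the best-known members. MX1, a GTPase that blocks influenza virus, read 3.312 to 98.01 over all 24 arrays, with medians of 14.02 and 22.67 on control and miR-28 arrays at 12 h and of 24.14 and 10.16 at 24 h. RSAD2, which makes a chain-terminating nucleotide, read 6.526 to 113.9, with medians of 52.4 and 38.82 at 12 h and of 31.08 and 33.99 at 24 h. USP18, which removes ISG15 and damps the receptor, read 4.586 to 129.8, with medians of 12.38 and 12.73 at 12 h and of 29.28 and 33.2 at 24 h. In each of these the groups overlapped. The others ranged over 5.264 to 73.4 (CMPK2), 6.744 to 33.4 (DHX58), 4.237 to 99.22 (HERC5), 3.333 to 87.9 (HERC6), 4.415 to 242.5 (IFI44), 3.274 to 121.5 (IFIT5), 8.873 to 213.3 (LGALS3BP), 4.994 to 98.41 (MX2), 8.711 to 124.2 (OAS3) and 7.188 to 237.8 (XAF1). In a fit without the filter their differences at 24 h lay between -0.497 ± 0.533 (HERC6) and 0.784 ± 0.456 (OAS3), and limma called 0 of the 13.

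Taken by probe set, 5 of the 66 tested probe sets of these genes were higher at 24 h, where 348 of 27306 probe sets (1.27%) were, and at 12 h limma called 0 of the 66, where 0.165% were called and 10 of the 66 had an unadjusted p under 0.05. The ISG20 probe sets gave 0.518 ± 0.101 and 0.468 ± 0.094, both called, and the single TRIM22 probe set 0.473 ± 0.089. SP110 had 5 probe sets. Of these, 2 gave 0.771 ± 0.112 (adjusted p 0.000334) and 0.677 ± 0.094 (adjusted p 0.000199), while the other 3 gave 0.229 to 0.335 and were not called. The single probe sets of UBE2L6 and IFI35 and the brighter one of IFIT2 missed the threshold in this larger family, at adjusted p of 0.0731, 0.068 and 0.0705. The second IFIT2 probe set gave 0.6 ± 0.474. For OASL, an OAS protein without the enzyme's activity, the brighter probe set gave 0.166 ± 0.324 and the other 0.893 ± 0.253 (adjusted p 0.0586). The probe sets of RNF213 ran from -0.199 ± 0.221 to 0.842 ± 0.307, and those of SP100 from -0.069 ± 0.18 to 0.466 ± 0.188, so the sign depended on the probe set in both genes.

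**Figure D3:**
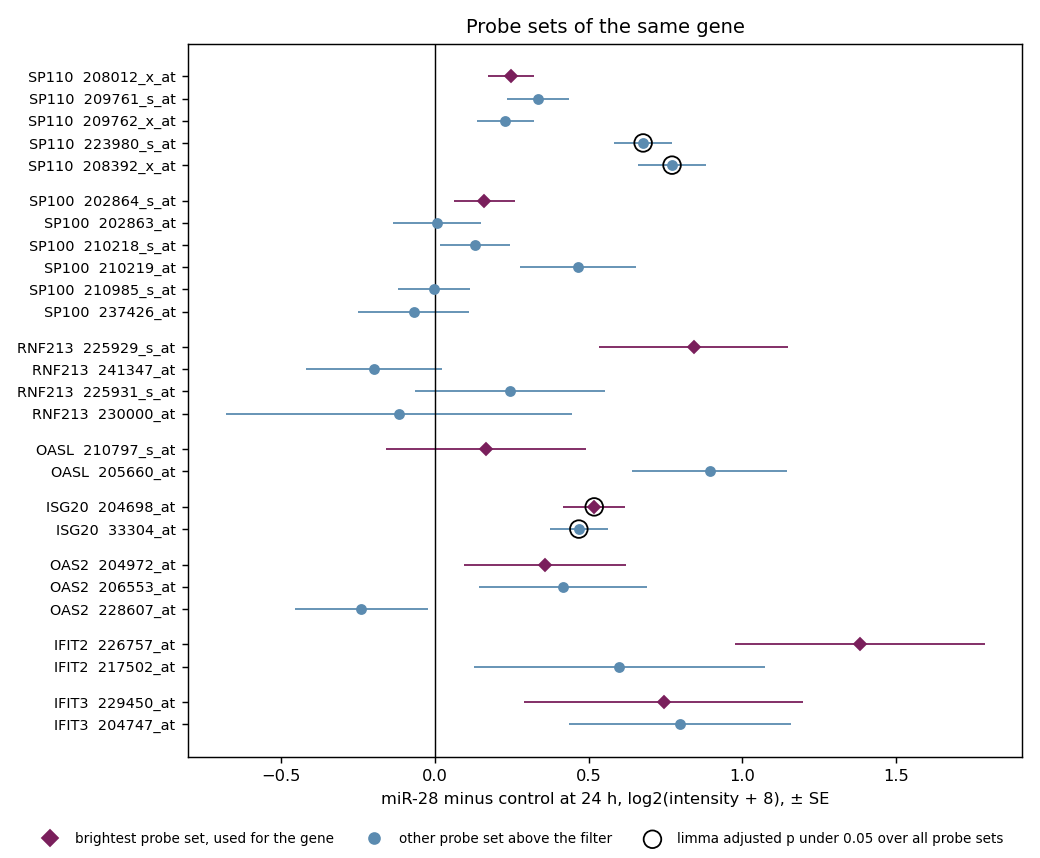
Difference between miR-28 and control cells at 24 h, on the scale log2(intensity + 8) with its SE, for single probe sets of 8 of the genes. Diamonds mark the brightest probe set, which stood for the gene, and open circles mark calls over all 27306 probe sets. Both ISG20 probe sets and 2 of the 5 SP110 probe sets are called, and those of RNF213 and SP100 lie on both sides of 0.

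With time, 1 of the 37 genes rose in control cells, where 3.6% of all genes did, and 1 fell, where 2.54% did. UBE2L6 rose by 0.616 ± 0.083 (adjusted p 9.68e-05), and its 12 h and 24 h ranges did not meet. ISG20 was the gene that fell. In miR-28 cells 5 of the 37 rose, where 2.65% of all genes did, and 0 fell. They were UBE2L6 (0.641 ± 0.083), TRIM22 (0.482 ± 0.089), IFITM2 (0.671 ± 0.155), PLSCR1 (0.677 ± 0.168) and EIF2AK2 (0.354 ± 0.099). IFITM2 read 568 to 858.1 (median 704.5) at 12 h and 967.3 to 1379 (median 1117) at 24 h, with no overlap. PLSCR1 also gave 0.547 ± 0.168 in control cells (adjusted p 0.0538), so a rise in miR-28 cells alone is not shown. Without the 24 h miR-28 arrays A3 and B3, 3 of the 5 were called in miR-28 cells, where 1.22% of all genes were called higher. EIF2AK2 and PLSCR1 were then no longer called. Without the 12 h miR-28 array B3 3 were called too. EIF2AK2 kept its call with time in 18 of 37 alternatives, PLSCR1 in 30, and UBE2L6, TRIM22 and IFITM2 in 34 each.

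Much of the spread in these genes ran between populations of 1 genotype, and in opposite directions in the control and miR-28 cells. At 12 h, before the turned letters enter, all 3 population B arrays lay above all 3 population A arrays of control cells in 11 of the 37 genes, against 5.37% of all genes. In miR-28 cells all 3 population A arrays lay above all 3 population B arrays in 15 of the 37, against 6.2% of all genes. IFI27, IFI44L, IFIH1, IFIT1, IFIT3 and OAS2 were in both sets. The median difference of B minus A was 0.14 in control and -0.314 in miR-28 cells over the 37 genes, against 0 and 0.005 over all genes. In 27 of the 37 genes B was the higher population in control cells and the lower in miR-28 cells, a pattern of 24.5% of all genes. The letters are not known to pair a control with a miR-28 population.

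IFIT1 averaged 150.2 in control A, 398.4 in control B, 592.2 in miR-28 A and 133.4 in miR-28 B at 12 h. IFI27, often used as a marker of interferon exposure, averaged 593.1, 1222, 1822 and 387.2 in the same order. In these 2 genes the highest and the lowest of the 4 populations were thus both miR-28 populations, and the control populations lay between them. IFI44L had the same order, with 36.45 in miR-28 B and 88.35 in control A. In IFIT3, OAS2, ISG15 and IFIH1, however, control A was the lowest population, as for IFIT3 at 160.1 against 173.3 in miR-28 B. In the fit to the 12 h arrays B minus A was 1.36 ± 0.494 for IFIT1 in control cells (adjusted p 0.684) and -2.091 ± 0.494 in miR-28 cells (adjusted p 0.316). For IFI27 it was 1.029 ± 0.573 and -2.2 ± 0.573 (adjusted p 0.954 and 0.337). IFIT3 gave 0.893 ± 0.472 and -1.345 ± 0.472, and ISG15 0.393 ± 0.234 and -0.731 ± 0.234. By this fit limma called 0 of all genes between the populations of either genotype, with 6 of the 37 genes in control cells and 14 in miR-28 cells at an unadjusted p under 0.05, where 640 and 734 of all 11380 genes were.

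**Figure D4:**
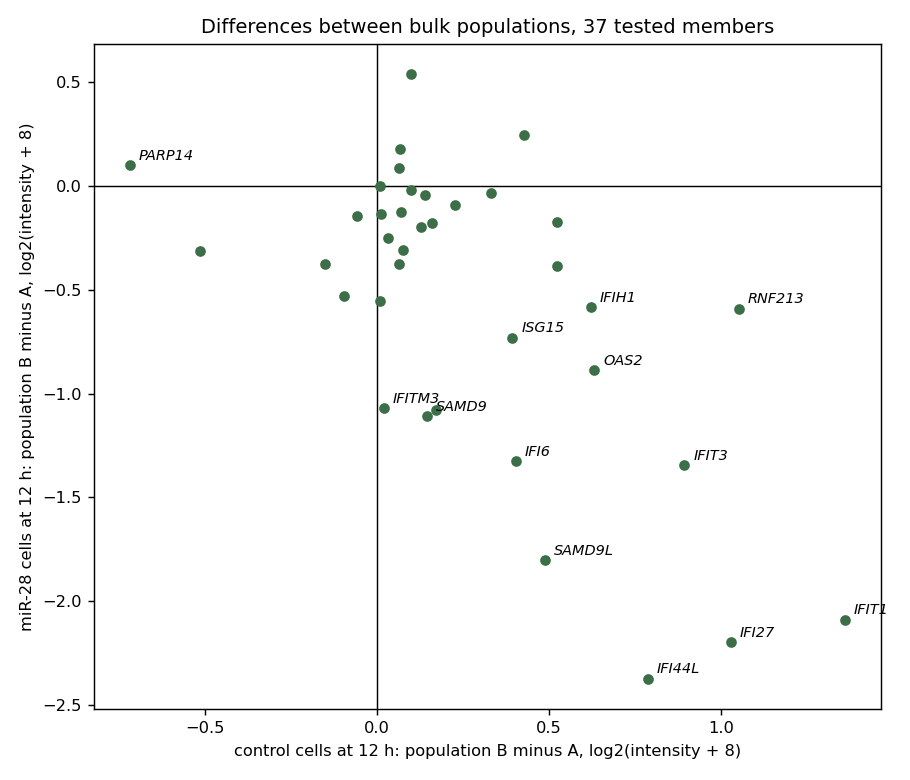
Difference between population B and population A at 12 h in control cells (x axis) and in miR-28 cells (y axis), both on the scale log2(intensity + 8), for the 37 tested genes, 1 point per gene. Most points lie in the lower right, where B is higher in control and lower in miR-28 cells, with IFIT1 at 1.36 and -2.091.

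Over both times, with the letters as labelled, limma called 0 of the 37 genes between control populations, where 10 of all genes (0.0879%) were called. At an unadjusted p under 0.05, 10 were higher in B, against 4.53% of all genes, and 1 was lower. Between miR-28 populations it called 0 of the 37 and 0 of all genes (0%), with 13 lower in B at an unadjusted p under 0.05, against 2.34% of all genes. With arrays A3 and B3 left out, 3 of the 37 were called in control cells, where 30 of all 11380 genes (0.264%) were, and 7 in miR-28 cells, where 47 (0.413%) were. No control array was left out there, and for IFI27 the control difference stayed at 1.068 while its SE went from 0.406 to 0.117. Because A3 and B3 were picked out on these same genes, the counts of 3 and 7 both describe the data and support nothing further. Without A3 alone 2 were called between miR-28 populations, of 10 calls among all genes, and without B3 alone 1 of 5. Between control populations 0 of 25 and 0 of 15 calls were then among these genes.

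**Figure D5:**
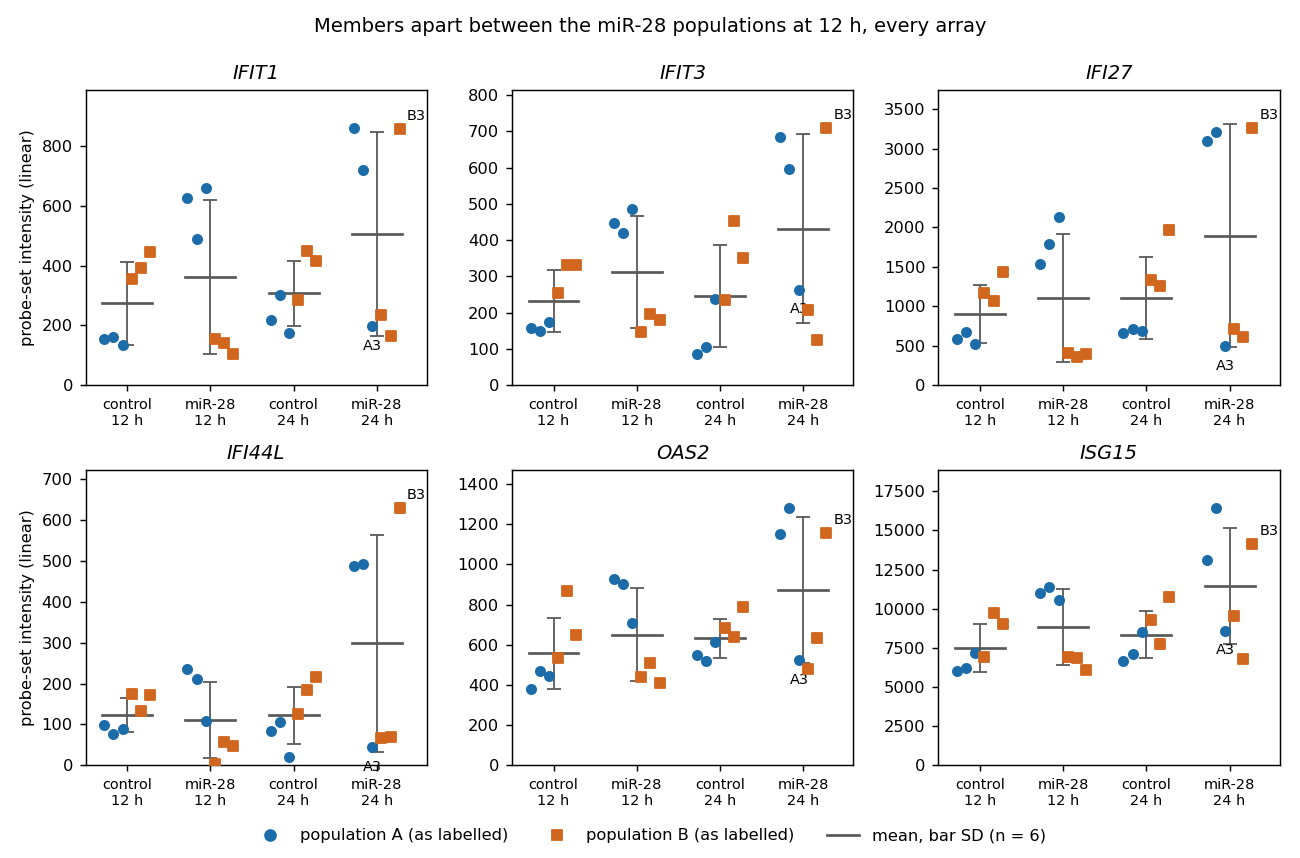
Probe-set intensity (linear) of 6 genes on every array, by group, with circles and squares for the labelled populations A and B and lines with bars for the mean and SD of 6 arrays. At 12 h the A arrays are above the B arrays in miR-28 cells and below them in control cells, with an overlap for ISG15 in control cells. At 24 h miR-28 array A3 lies with B1 and B2, and B3 with A1 and A2, as for IFIT1 at 197.7 and 858.5.

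The size of the genotype difference can be set beside that of the populations. In 9 of the 37 genes the absolute difference between genotypes at 24 h exceeded both absolute population differences at 12 h, against 34.8% of all genes. The share among the 37 was thus below that among all genes. The 9 were all 6 called genes together with BST2, DTX3L and PARP12. Called genes were picked for a large genotype difference, so their place among the 9 adds no support to the calls. The genotype means also rest on 6 arrays each and the population means on 3. For ISG20 the population differences at 12 h were 0.01 ± 0.159 in control and 0 ± 0.159 in miR-28 cells, and for TRIM22 0.063 ± 0.134 and 0.086 ± 0.134. With the letters as labelled, so with A3 in population A and B3 in population B, the genotypes within population A alone differed at 24 h by 1.117 ± 0.455 for IFIT1 and 1.808 ± 0.389 for IFIT3, and within population B alone by -0.22 ± 0.487 and -0.319 ± 0.504. ISG20 gave 0.501 ± 0.175 and 0.536 ± 0.144 in the same split, and TRIM22 0.531 ± 0.105 and 0.415 ± 0.164, with 0 of these called. In this split the direction for ISG20 and TRIM22 was the same in both, while for IFIT1 and IFIT3 it was not. The letters are not known to pair across genotypes, so the contrast depends on an arbitrary match. With miR-28 A set against control B and miR-28 B against control A, mean IFIT1 intensity was 592.3 against 383.5 and 418.6 against 231. For IFIT3 it was 514.8 against 345.8 and 347.1 against 143.3, so by these means miR-28 cells were higher in both genes and both parts. These means also keep the letters as labelled, and those of miR-28 B rest largely on array B3. On B1, B2 and B3 IFIT1 read 233.8, 163.4 and 858.5, and IFIT3 read 206.8, 125.9 and 708.7. The direction in that part is therefore not shown apart from B3.

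Upstream of these genes, 3 of 31 tested genes of the interferon pathway were higher at 24 h, where 2.6% of all genes were, and 0 were lower. At 12 h limma called 0 of the 31, where it called 0.536% of all genes, and 3 genes of the kinase and factor list had an unadjusted p under 0.05. Among the 6 receptor chains 2 were higher, IFNAR1 at 0.514 ± 0.138 (adjusted p 0.03) and IL10RB, a chain of the type III interferon receptor, at 0.497 ± 0.136 (adjusted p 0.0329). IFNAR2 gave 0.054 ± 0.11. The 9 tested kinases and transcription factors held 1 call, IRF9, the DNA-binding partner of the STAT proteins. It read 676.4 to 998 (median 821) on control and 1034 to 1545 (median 1235) on miR-28 arrays at 24 h, without overlap, and differed by 0.621 ± 0.105 (adjusted p 0.000906). IRF9 kept its call in 34 of 37 alternatives, IFNAR1 in 24 and IL10RB in 25. With the mean over its 4 probe sets IFNAR1 gave 0.086 ± 0.127 (adjusted p 0.794), and without A3 and B3 0.57 ± 0.161 (adjusted p 0.0507), neither of which was called. IRF7 gave 0.101 ± 0.219. Of 9 nucleic acid sensors and adaptors limma called 0, with 2 at an unadjusted p under 0.05 and all 9 above 0. Of 6 negative regulators it called 0, with 0 at an unadjusted p under 0.05.

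The interferon genes themselves were dim. Of 18 with a probe set 1 was tested, IFNA17, at 0.47 ± 0.428, and the close sequence likeness of the IFNA genes makes its identity uncertain. IFNB1 lay below the filter, at 3.785 to 51.01 over all arrays, with medians of 5.853 on control and 4.957 on miR-28 arrays at 24 h. All 5 guanylate-binding protein genes, which answer mainly to interferon gamma, also lay below the filter.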

How the data were processed

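Arrays of 24 P3HR1 samples were analysed. The deposited intensity values came from MAS5, per the submitters' processing notes, with version and settings not given in the sources used here. Their 2% trimmed mean was 500.069 to 500.076 on every array, and this scaling was kept. Of 54675 probe sets, 62 were controls, 41091 had 1 symbol, 1801 several and 11721 none, and 54 symbols were not matched to RefSeq. The members, roles, pathway lists and tests were chosen with earlier results of these data known.

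Values were taken as log2(intensity + 8). Genes with a mean above 6.1082, the median of all probe sets, were fitted with limma 3.58.1 and statmod 1.5.0 (R 4.3.3) as 4 group means, and population entered as a random block (correlation -0.0229). The block does not guard against differences between populations, since its correlation was below 0. Population differences came from a fit of 8 means without a block. Tests were two-sided with Benjamini-Hochberg adjustment, and the fit was first tested on simulated data. Replicates are inductions of 2 bulk populations. In the fit of 4 group means, p-values measure the spread among the arrays of a group, between inductions and between the 2 populations together. In the fit of 8 means they measure the spread between inductions of a population. Neither fit takes the population as the unit. Named genes were those called in any comparison, the 2 largest statistics per role at 24 h, IFIT1, MX1, OAS1, ISG15, USP18 and RSAD2, genes whose probe sets disagreed, those below the filter, and called or key pathway genes; other genes were named after their values were seen. Same-numbered arrays did not deviate together (correlations -0.094 to 0.069), so the numbers were not used as pairs. Alternatives covered the pseudocount, filter, scaling, block, probe-set rule, populations and left-out arrays. Leaving out A3 and B3 together was added after seeing the data.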

Additional observations from a re-analysis of the deposited data

Results flagged for a closer look

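TRIM22 in control cells at 24 h had 1 array far from the others. Array B2 read 4186, and the other 5 read 2527 to 3013. Without it the 24 h difference was 0.563 ± 0.065 (limma adjusted p 1.89e-05), against 0.473 ± 0.086 with it. The same check covered 48 groups in 12 genes, and chance marks about 1 in 20 groups.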

How the results depend on the processing

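Of the 37 tested genes, 6 were called higher at 24 h. Without the filter on low values 2 were called, without the block 3, with the replicate block 3 and with the mean over probe sets 3. With population A alone, population B alone or population means 0 were called, and without A3 and B3 2. Leaving out 1 array gave 2 to 6. Median centring called 395 genes higher and 149 lower in all, against 296 and 313, and 7 of the 37. Quantile normalization called 294 and 335 in all, and 4 of the 37. For control cells with time (2 called), no filter and median centring gave 1, and population A, population B and population means 0, with 1 to 2 when 1 array was left out. For miR-28 cells with time (5 called), no filter, the mean over probe sets and the loss of A3 and B3 gave 3, and population A, population B and population means 0, with 3 to 6 when 1 array was left out. Between populations 0 were called. Without A3 and B3 3 were called in control and 7 in miR-28 cells, and leaving out 1 array gave 0 to 2 in miR-28 cells. Of the probe sets 5 were called at 24 h, with 8 under median centring, 0 with population A, population B or population means, and 5 to 7 when 1 array was left out. At 24 h the sign turned in population B alone for IFIT1 (-0.22), IFIT3 (-0.319) and IFIH1 (-0.08). The replicate block could not be fitted for the differences between populations, since each label lies within 1 population. Signal over background limits the 13 genes below the filter, and 2 populations per genotype limit all comparisons.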
